A study of Mus musculus with 4 samples.

Results

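Chemokine ligands are small secreted or membrane-tethered proteins that guide the movement of cells carrying the matching receptors. Their names follow the spacing of conserved cysteines, so that the CXC, CC and CX3C families are told apart. Fibroblasts of tumours are known producers of several of them, and ligands for neutrophils, monocytes and lymphocytes belong to different branches of the family. The 10 ligand genes described here were Cxcl1, Cxcl2, Cxcl5, Cxcl10, Cxcl12, Cxcl16, Ccl2, Ccl5, Ccl7 and Cx3cl1, chosen by their symbols among the 23377 genes of a count table. All 10 were found there, and each had at least 1 read.

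Polyadenylated RNA was sequenced from mouse cancer-associated fibroblasts (CAFs), the fibroblasts that live within a tumour. The CAFs of tumours labelled resistant (RES4) gave 2 libraries, and the CAFs of tumours labelled normal (WTA) gave 2 libraries; the study title names targeted therapies of MET and EGFR and lactate secretion by the cancer cells. The sources used here do not give strain, genotype, age, treatment or sort of the cells, and the titles within a group differ only by the replicate number, so each group may stem from 1 tumour or culture. The protocol text describes a TruSeq kit and a SMART-seq2 protocol without saying which library was made with which.

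Library totals were 2845237 and 2785936 reads in resistant and 3948066 and 5558541 reads in normal tumour CAFs. Of the genes, 12001 had enough reads for a test. In resistant tumour CAFs 14 fibroblast markers summed to 10067 and 9320 CPM (read counts relative to a library size adjusted by TMM, the trimmed mean of M values, with the usual CPM scale), against 4931 and 4076 CPM in normal tumour CAFs, where 1 marker, Lum, had no read. Col1a2, the largest of these markers, made up 18.6% to 19.8% of the resistant and 23.3% to 23.6% of the normal sums. Single markers differed far more than the sum. Pdgfra had 1119 and 881 CPM in the resistant libraries, against 29.7 and 7.41 CPM in the normal libraries. Dcn had 92.5 and 127 CPM, against 0.743 and 0.168 CPM. Postn and Col5a1 overlapped between the groups. Schwann cell and neural crest genes, 12 in number, summed to 248 and 269.8 CPM in the resistant libraries, against 1425 and 1264 CPM in the normal libraries. Most of the resistant sum was Pmp22, with 238 and 259 CPM in the resistant libraries, against 136 and 123 CPM in the normal libraries. Ngfr had 3.42 and 3.30 CPM in the resistant libraries, against 493 and 462 CPM in the normal libraries, and Sox10 had 0.761 and 0.367 CPM, against 185 and 138 CPM. Markers of cell type thus moved with the groups, and their part in the chemokine results was not tested. In bulk RNA, fewer cells of a type and less RNA per cell cannot be told apart. The design text calls the replicates biological but does not name separate animals or cultures. The p-values therefore cover the spread between these libraries alone, and part of it may be technical.

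The promoters of the ligands for neutrophils (Cxcl1 and Cxcl2) and of the interferon-induced ligand Cxcl10 are shown because inflammatory and interferon signals are known to act on these genes, and the promoter of Cxcl12, the member with most reads in resistant tumour CAFs, stands beside them. Each line holds the 250 bases before the RefSeq start of the gene, 5′ to 3′ on the gene's strand (build GRCm38.p6). Capitals mark matches to the textbook 10-base NF-kB consensus or, in Cxcl10, also to the interferon-stimulated response element (GAAA, any 2 bases, GAAA), both searched on both strands.
Cxcl1, chr5:90890995-90891244, plus strand: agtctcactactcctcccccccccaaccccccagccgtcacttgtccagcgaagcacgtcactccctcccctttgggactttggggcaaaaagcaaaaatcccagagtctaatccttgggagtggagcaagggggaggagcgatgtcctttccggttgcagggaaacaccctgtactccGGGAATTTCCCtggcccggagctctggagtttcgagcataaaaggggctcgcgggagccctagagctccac
Cxcl2, chr5:90903649-90903898, plus strand: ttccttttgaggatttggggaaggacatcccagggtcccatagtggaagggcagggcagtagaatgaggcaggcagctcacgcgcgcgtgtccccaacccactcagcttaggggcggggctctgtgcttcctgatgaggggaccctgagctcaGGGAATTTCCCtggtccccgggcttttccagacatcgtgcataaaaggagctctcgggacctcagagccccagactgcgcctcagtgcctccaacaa
Cxcl10, chr5:92348890-92349139, minus strand: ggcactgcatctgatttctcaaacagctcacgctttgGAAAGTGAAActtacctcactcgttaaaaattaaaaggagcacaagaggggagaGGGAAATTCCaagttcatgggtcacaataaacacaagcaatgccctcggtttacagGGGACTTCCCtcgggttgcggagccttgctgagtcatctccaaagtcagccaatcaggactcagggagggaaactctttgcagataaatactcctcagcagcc
Cxcl12, chr6:117168285-117168534, plus strand: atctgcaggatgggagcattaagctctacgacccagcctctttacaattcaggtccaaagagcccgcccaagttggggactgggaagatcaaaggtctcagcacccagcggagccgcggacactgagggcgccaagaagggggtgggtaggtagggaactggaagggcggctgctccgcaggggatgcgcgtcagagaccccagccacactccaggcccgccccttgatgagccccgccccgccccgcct

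Cxcl1 and Cxcl2 carry the same run GGGAATTTCCC, in which a match on each strand overlaps by all but 1 base, from position -71 to -61 in Cxcl1 and from -97 to -87 in Cxcl2. Cxcl10 has an NF-kB match from -159 to -150 and another from -103 to -94, and its interferon element lies from -213 to -204. The NF-kB consensus was found in 3.9% and the interferon element in 2.98% of 32841 RefSeq promoters of the same length. Entries were found for 5 of the 10 members; neither motif was in the window of Cxcl12 or Cx3cl1. A match is a stretch of letters and no measurement of binding, and the letters in these windows say nothing of factors that may act elsewhere.

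Chemokine ligand transcripts were more abundant in resistant tumour CAFs. The summed level of the 10 ligands was 974 and 1166 CPM in resistant and 108 and 115 CPM in normal tumour CAFs. Cxcl12 took 40.9% and 39.8% of the total in the resistant libraries, against 10.8% and 0.292% in the normal libraries, where Ccl7, Ccl2 and Cxcl10 led. All 10 ligands had resistant values above both normal values, where 31.9% of the genes tested had their ranges apart in that direction. The low-count filter (2.94 CPM in at least 2 libraries) kept 9 of the 10. Of these 9, all passed the test as higher in resistant tumour CAFs (edgeR's quasi-likelihood test, Benjamini-Hochberg adjusted p under 0.05), where 15.5% of all genes tested did; 29.4% were called in either direction. Cxcl1, Cxcl5 and Cxcl16 met the filter in no normal library, and Cxcl12 in 1, so that a gene of this kind could hardly enter the test without differing. The remaining 5, Cxcl10, Ccl2, Ccl5, Ccl7 and Cx3cl1, met it in all 4 libraries.

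**Figure D1:**
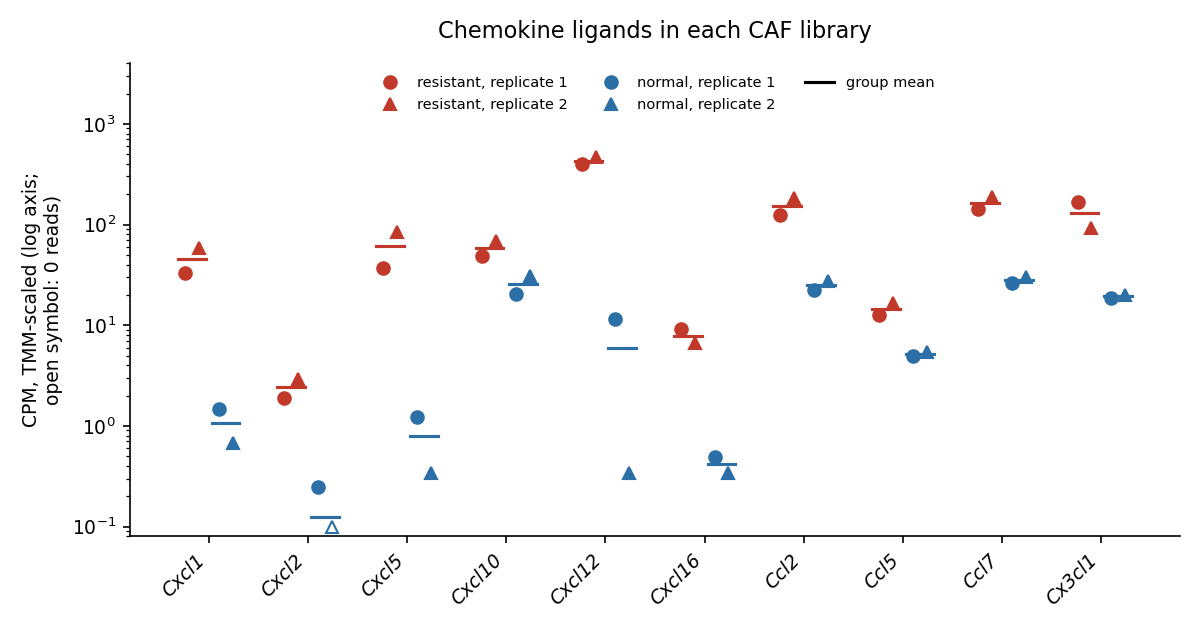
Level of each chemokine ligand in CPM (log axis) in the 2 resistant (red, left) and 2 normal (blue, right) libraries; circles are replicate 1, triangles replicate 2, bars group means and open symbols libraries with 0 reads. The resistant symbols lie above the normal ones for all 10 ligands, closest together for Cxcl10 and widest apart for Cxcl12 against normal replicate 2.

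The ligands of the neutrophil receptor CXCR2 were nearly absent from normal tumour CAFs. Cxcl1, known in mouse as KC, had 32.7 and 58.7 CPM in the resistant libraries, against 1.49 and 0.673 CPM in the normal libraries. The normal values rest on 6 and 4 reads, and the groups lie far apart. The log2 difference was 5.43 ± 0.60 (SE; adjusted p = 4.05e-05), higher in 2 of 2 resistant libraries than in either normal one.

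Cxcl5, the mouse ligand LIX, had 36.9 and 84.4 CPM in the resistant libraries, against 1.24 and 0.337 CPM in the normal libraries. Resistant replicate 2 is clearly the higher of its pair, and the groups do not overlap. Cxcl5 thus had a log2 difference of 6.33 ± 0.69 (adjusted p = 3.83e-05). It was 5.63 without resistant replicate 2, 7.32 without normal replicate 1 and 5.55 without normal replicate 2, past the test each time.

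Cxcl2, known as MIP-2, was the rarest member, with 5 and 8 reads in the resistant libraries, against 1 and 0 reads in the normal libraries. It did not reach the filter and has no p-value here. The ratio of pooled reads, scaled by library size, was 24.2 (exact 95% interval 3.64 to 1030), which covers counting error only. Its promoter has the same NF-kB run as Cxcl1, shown above, while its level was far lower than that of Cxcl1 in every library with reads for it: 1.90 and 2.94 CPM in resistant and 0.248 CPM in normal replicate 1.

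Among the other CXC ligands, Cxcl12, the chemokine of the receptor CXCR4 and a well-known product of CAFs, showed the highest level in resistant tumour CAFs. It had 399 and 464 CPM in the resistant libraries, against 11.6 and 0.337 CPM in the normal libraries. The resistant libraries are alike, whereas the normal ones differ 34.6-fold, with 47 reads in replicate 1 and 2 reads in replicate 2. Of 11658 tested genes with at least 10 reads over the normal libraries, 2 had so high a ratio of normal replicate 1 to replicate 2, counting Cxcl12 itself, and 4.39% had a ratio of at least 2.

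The log2 fold change of Cxcl12 was 6.28 ± 0.80 (adjusted p = 9.76e-05), and its size depends on the normal library used. The pooled resistant level was 37.1 times that of normal replicate 1 (exact 95% interval 27.8 to 50.6) and 1284 times that of normal replicate 2 (355 to 10610). Without normal replicate 2 the log2 fold change was 5.18, and without normal replicate 1 it was 10.14; it passed both times. The same 2 libraries differed in some fibroblast markers. Of the 12 markers with at least 10 reads, 1, Pdgfra (29.7 against 7.41 CPM), was at least 2-fold higher in normal replicate 1. Among all tested genes with that many reads, 4.39% were. Most other markers were only slightly higher there, such as Col1a1 (ratio 1.22) and Col3a1 (1.06). Genes outside the list could lean the same way, such as Sox10 (185 against 138 CPM). Pdpn went the opposite way, with 3.72 CPM in normal replicate 1 and 10.8 CPM in normal replicate 2. The part of these markers in the Cxcl12 difference was not tested.

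Cxcl10, the interferon-induced ligand of CXCR3, was among the members least different between the groups. It had 49.1 and 69.0 CPM in the resistant libraries, against 20.3 and 30.5 CPM in the normal libraries. The highest normal library thus stood below the lowest resistant library. The log2 fold change was 1.21 ± 0.40 (95% interval 0.33 to 2.09; adjusted p = 0.0394).

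That call for Cxcl10 is fragile. It was lost without resistant replicate 2 (0.94, adjusted p = 0.0934), without normal replicate 1 (0.91, adjusted p = 0.462) and without normal replicate 2 (1.51, adjusted p = 0.177), and with library totals as the only scaling (1.08, adjusted p = 0.0565). In a GRCm38 annotation Cxcl10 shares 133 exonic bases with Art3, a gene on the opposite strand. Art3 had 283 and 353 reads in the resistant libraries, against 41 and 33 reads in the normal libraries. The sources used here do not say whether counting used strand, so reads from the shared bases cannot be assigned.

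Cxcl16, a transmembrane ligand of CXCR6, was scarce in both groups. It had 9.13 and 6.61 CPM in the resistant libraries, against 0.496 and 0.337 CPM in the normal libraries, the normal values being 2 reads each. For Cxcl16 the log2 difference was 4.18 ± 0.69 (adjusted p = 6.10e-04). It shares 552 exonic bases with Zmynd15 on the opposite strand in the same annotation, and Zmynd15 had 0 reads in all 4 libraries.

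The monocyte chemokines Ccl2 (MCP-1) and Ccl7 (MCP-3), which act through CCR2, were well expressed in both groups and differed by similar folds. Ccl2 had 125 and 184 CPM in the resistant libraries, against 22.5 and 27.8 CPM in the normal libraries. Ccl7 had 142 and 187 CPM in the resistant libraries, against 26.0 and 30.1 CPM in the normal libraries. For both genes each resistant library exceeded each normal library several times over, and replicates were close.

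On the log2 scale Ccl2 rose by 2.61 ± 0.36 (adjusted p = 1.65e-04) and Ccl7 by 2.55 ± 0.34 (adjusted p = 1.32e-04). Both stayed past the test in all 15 alternative settings, with a log2 fold change of 2.31 to 2.86 for Ccl2 and 2.33 to 2.73 for Ccl7. The genes are neighbours on chromosome 11, and the number of Ccl7 reads for each Ccl2 read hardly varied: 1.13 (exact 95% interval 0.975 to 1.32) and 1.02 (0.898 to 1.15) in the resistant libraries, against 1.15 (0.863 to 1.54) and 1.08 (0.873 to 1.35) in the normal libraries. All 4 intervals overlap, so a difference in this ratio was not detectable at this depth.

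Ccl5 (RANTES), a ligand of CCR1 and other receptors on T cells and monocytes, was low. It had 12.6 and 16.5 CPM in the resistant libraries, against 4.96 and 5.39 CPM in the normal libraries. The groups are apart, at 33 and 45 reads in resistant and 20 and 32 reads in normal tumour CAFs. The log2 fold change was 1.48 ± 0.47 (95% interval 0.45 to 2.51; adjusted p = 0.0328).

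Like Cxcl10, Ccl5 lost its call without resistant replicate 2 (adjusted p = 0.0928), without normal replicate 1 (adjusted p = 0.213) and without normal replicate 2 (adjusted p = 0.188), and also with DESeq2 (adjusted p = 0.0960). Its log2 fold change lay between 1.27 and 1.67 in all settings that could test it.

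Cx3cl1 (fractalkine), the only CX3C ligand, is made as a membrane-bound protein and can be shed. It had 166 and 92.9 CPM in the resistant libraries, against 18.8 and 19.9 CPM in the normal libraries. The normal libraries are nearly equal, while resistant replicate 1 is clearly the higher of its pair. For Cx3cl1 the log2 difference was 2.74 ± 0.39 (adjusted p = 2.39e-04), and it passed in all 15 alternative settings, from 2.26 to 3.10.

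**Figure D2:**
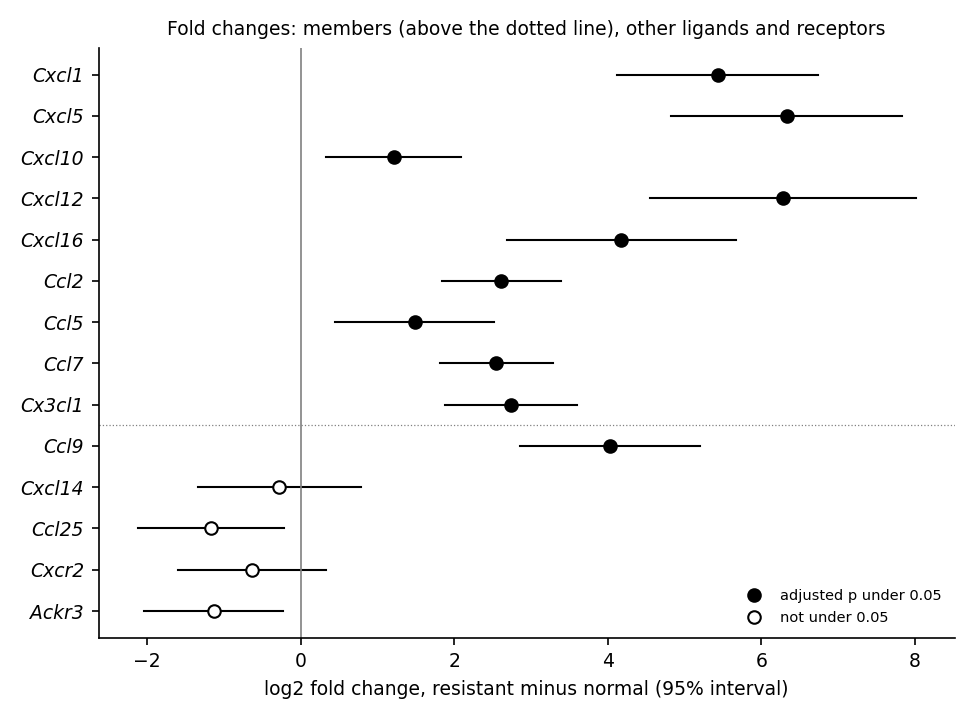
Log2 fold changes, resistant minus normal, with 95% intervals, for the 9 tested members (above the dotted line) and for other tested ligands and receptors; filled circles have an adjusted p under 0.05. Members range from 1.21 (Cxcl10) to 6.33 (Cxcl5), while Cxcl14, Ccl25, Cxcr2 and Ackr3 lie below 0 with open circles.

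The folds thus differ between members, from Cxcl10 and Ccl5 through the group of Ccl2, Ccl7 and Cx3cl1 to Cxcl1, Cxcl5 and Cxcl12. The 95% intervals of Cxcl10 (0.33 to 2.09) and Cxcl1 (4.13 to 6.74) do not overlap, nor do those of Ccl7 (1.81 to 3.28) and Cxcl5 (4.82 to 7.84). Those of Ccl2, Ccl7 and Cx3cl1 overlap nearly in full. Among all genes tested, 0.975% had a higher log2 fold change than Cxcl5, 6.37% than Ccl2 and 14% than Cxcl10.

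Among the members 7 were called up in the authors' deposited table: Cxcl1, Cxcl5, Cxcl12, Cxcl16, Ccl2, Ccl7 and Cx3cl1. Over all 15879 genes of the authors' deposited table, 776 were called up and 574 down. The log2 fold changes in the authors' deposited table were 5.44 for Cxcl1, 6.36 for Cxcl5 and 6.16 for Cxcl12. Cxcl2, Cxcl10 and Ccl5 were not called there, with adjusted p = 0.666, 1 and 1 in the authors' deposited table. Calls in the authors' deposited table reached an adjusted p of 0.0999, and the smallest absolute log2 fold change called was 2. Cxcl16 was called at adjusted p = 0.0676 in the authors' deposited table. These limits differ from the 0.05 without a fold limit used here, so the calls are not directly comparable. The test statistic in the authors' deposited table was 0 for 9194 genes, none with an absolute log2 fold change above 1.01. That is the pattern of a test against a log2 fold change of about 1. The authors' adjusted p-values for Cxcl10 and Ccl5 thus do not speak to a difference from 0. A quasi-likelihood test against a log2 fold change of 1 (glmTreat) called the same 7 members and left Cxcl10 (adjusted p = 0.470) and Ccl5 (adjusted p = 0.262) uncalled; it called 8.88% of all genes tested higher and 6.99% lower. The likelihood ratio test called 9 members, beside 17.2% of all genes tested. Without the low-count filter all 10 members were called, beside 12.5% of the 17243 genes then tested. Without resistant replicate 1, 9 members were called higher, beside 17% of all genes tested, and 19.6% were called lower. Cxcl10 and Ccl5 were lost in each of the other 3 fits with a library left out, so that 7 members were called. Of all genes tested, 17.5% were called higher without resistant replicate 2, 9.85% without normal replicate 1 (8.88% lower) and 8.81% without normal replicate 2 (7.71% lower).

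**Figure D3:**
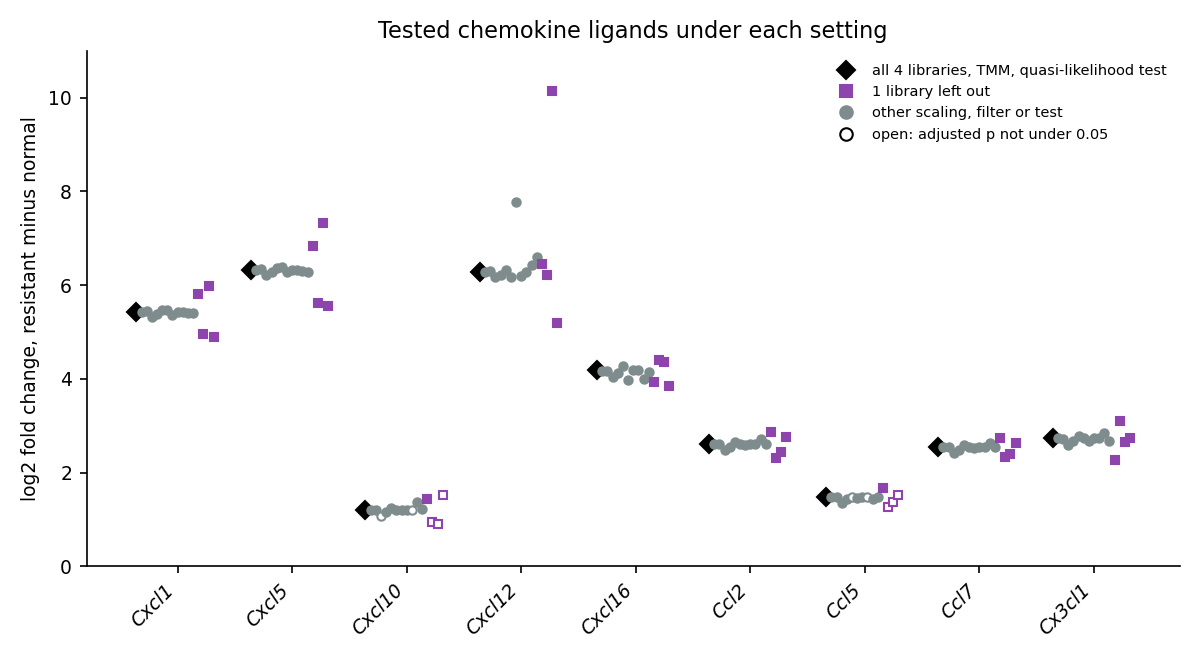
Log2 fold change of the 9 tested ligands with all 4 libraries (black diamonds), with 1 library left out (purple squares) and with other scalings, filters or tests (grey circles); open symbols have an adjusted p of 0.05 or more. Open symbols occur for Cxcl10 and Ccl5 only, and the value of Cxcl12 spans 5.18 to 10.14.

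Levels of different genes were compared per length. Per kilobase of coding sequence Cxcl12 led in resistant tumour CAFs with 1209 ± 130 CPM per kilobase (mean ± SD, n = 2), ahead of Ccl7 with 565 ± 109 and Ccl2 with 348 ± 92.9. In normal tumour CAFs Ccl7 led with 96.5 CPM per kilobase (89.4 and 104 in the 2 libraries), ahead of Cxcl10 with 86.4 ± 24.4 and Ccl2 with 56.7 ± 8.32. Cxcl12 stood at 16.8 ± 22.4 there, below Ccl5.

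Some neighbours in these orders cannot be ranked. In resistant tumour CAFs Cxcl10 (201 ± 47.9 CPM per kilobase of coding sequence), Cxcl1 (159 ± 63.8), Cxcl5 (153 ± 84.8) and Cx3cl1 (109 ± 43.6) each overlap the next in this order. Cxcl10 (167 and 235) lay above Cx3cl1 (140 and 78.4) in both libraries. Per kilobase of exonic length this order did not hold, with 21.8 and 30.6 CPM for Cxcl10, against 42.2 and 23.6 CPM for Cx3cl1. In normal tumour CAFs Ccl7 overlaps Cxcl10, and Cxcl12 overlaps both Ccl5 (18.9 ± 1.12) and Cx3cl1 (16.3 ± 0.615). Ccl5 (18.2 and 19.7) lay above Cx3cl1 (15.9 and 16.8) there. Ccl5 (53.2 ± 10.3), Cxcl16 (10.7 ± 2.42) and Cxcl2 (8.06 ± 2.44) were lowest in resistant tumour CAFs. The lead of Cxcl12 depends on the length used. Cxcl12 has 8176 exonic but 357 coding bases, against 801 and 291 for Ccl7. Coding length therefore weighs in favour of Cxcl12, and exonic length weighs against it. With exonic length Ccl7 led in resistant tumour CAFs with 205 CPM per kilobase, against 136 for Ccl2 and 52.8 for Cxcl12. Cxcl16 and Cxcl2 remained the last 2 in both groups.

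The members other than Cxcl12 on chromosome 6 and Cx3cl1 on chromosome 8 lie on chromosomes 5 and 11, beside other ligand genes of which most had few or no reads. On chromosome 5 the neighbours Cxcl5, Ppbp, Pf4, Cxcl3, Cxcl15, Cxcl1 and Cxcl2 follow one another. Ppbp, a platelet chemokine, had 1 and 9 reads in the resistant libraries and none in the normal libraries, a level 6.21-fold higher against 3 reads over the group, with an exact 95% lower limit of 4.18-fold, and with all but 1 of the reads in resistant replicate 2. Pf4, Cxcl3 and Cxcl15 had at most 3 reads in any library.

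Farther along, Cxcl9, which shares the receptor CXCR3 with Cxcl10 beside it, had 8 and 10 reads in the resistant libraries and none in the normal libraries, 11.2-fold higher against 3 reads, with a lower limit of 8.20-fold. Cxcl11, the other neighbour of Cxcl10, had 1 read in each of the 4 libraries. The chromosome 11 cluster behind Ccl2 and Ccl7 held Ccl11 (eotaxin), with 2 and 11 reads in the resistant libraries and none in the normal libraries, 8.08-fold higher against 3 reads, with a lower limit of 5.68-fold; most of its reads were in resistant replicate 2. Ccl8 there had 8 and 26 reads in the resistant libraries, against 4 and 11 reads in the normal libraries.

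Ccl9, a CCR1 ligand that lies beyond Ccl5 on chromosome 11, had 32.0 and 68.6 CPM in the resistant libraries, against 2.48 and 3.53 CPM in the normal libraries. Its log2 difference was 4.03 ± 0.54 (adjusted p = 1.37e-04), and 3.37 without resistant replicate 2. Ccl9 met the count filter in 1 normal library, so that, like Cxcl12, it could hardly enter the test without differing. Of 31 other chemokine ligands 30 had a row in the count table, 18 had a read, 3 could be tested and Ccl9 alone passed. Among all genes tested 15.5% were called higher. The other tested ligands, Cxcl14 and Ccl25, did not pass and are named with their values known. Cxcl14 had 33.5 and 13.2 CPM in the resistant libraries, against 22.1 and 34.3 CPM in the normal libraries, so the groups overlap (log2 fold change -0.28, 95% interval -1.34 to 0.79, and 0.24 without resistant replicate 2). Ccl25, a thymus and gut chemokine, had 9.89 and 13.2 CPM in the resistant libraries, against 22.1 and 30.0 CPM in the normal libraries (log2 fold change -1.17 ± 0.44, adjusted p = 0.0638).

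**Figure D4:**
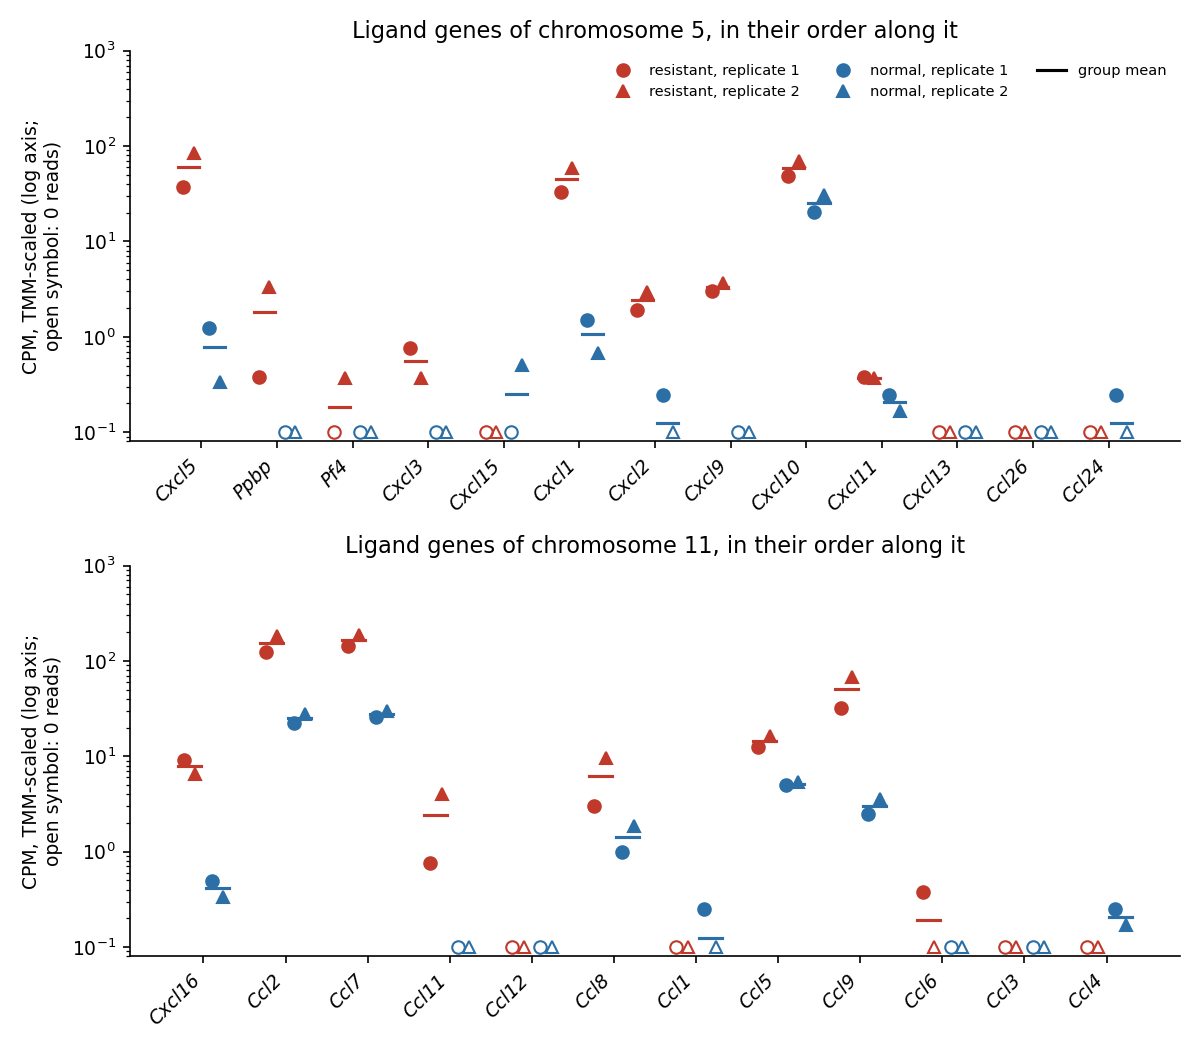
Levels in CPM (log axis) of the ligand genes of chromosomes 5 and 11 in their order along each, in resistant (red, left) and normal (blue, right) libraries; open symbols mark 0 reads and bars group means. Cxcl5, Cxcl1 and Cxcl10 stand out on chromosome 5 and Ccl2, Ccl7, Ccl5 and Ccl9 on chromosome 11. Cxcl16 (9.13 and 6.61 CPM in the resistant libraries) and Ccl8 (3.04 and 9.54 CPM) lie lower, and most other neighbours are at or near 0.

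The receptors that answer these ligands were rarely found in the CAFs themselves. Of 24 receptor genes 15 had a read and 2 reached the test, and neither passed edgeR's quasi-likelihood test; 1 of them, Ackr3, had an unadjusted p under 0.05. Cxcr4 and Cxcr3, the receptors of Cxcl12 and Cxcl10, had 0 reads in all 4 libraries, which allows up to 1.05 and 1.08 CPM in the resistant and 0.760 and 0.540 CPM in the normal libraries (3 reads by library totals). Ccr2, the main receptor of Ccl2, had 1 read, in normal replicate 1. Ccr1 had 1 and 7 reads in resistant tumour CAFs, against 0 and 1 reads in normal tumour CAFs. Cx3cr1 had 1 read in each resistant library, against 2 and 4 reads in the normal libraries. Cxcr6, the receptor of Cxcl16, had 2 and 4 reads in the resistant libraries, against 16 and 13 reads in the normal libraries, too few for the test.

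Ackr3, the atypical receptor that removes Cxcl12 from the surroundings, had 17.1 and 30.5 CPM in the resistant libraries, against 49.6 and 54.9 CPM in the normal libraries. The groups do not overlap, in the direction opposite to Cxcl12, where 32.9% of all genes tested had the resistant range below the normal range. The log2 fold change was -1.13 ± 0.42 and missed the threshold (adjusted p = 0.0587), while DESeq2 gave adjusted p = 0.0480 and limma-voom 0.0374. Ackr3 passed in 7 of the 15 alternative settings and not in the others, with a log2 fold change of -1.61 to -0.78. Cxcr2, the receptor of Cxcl1, Cxcl2 and Cxcl5, had 11.8 and 9.18 CPM in the resistant libraries, against 17.3 and 15.3 CPM in the normal libraries (log2 fold change -0.64, 95% interval -1.60 to 0.33, adjusted p = 0.321).

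Cx3cl1 and Cxcl16 are released from the membrane by the proteases ADAM10 and ADAM17, whose genes moved apart. Adam17 had 185 and 206 CPM in the resistant libraries, against 83.0 and 95.6 CPM in the normal libraries, and rose by 1.13 ± 0.28 (adjusted p = 0.00862). Adam10 had 218 and 126 CPM in the resistant libraries, against 350.1 and 397 CPM in the normal libraries, a log2 fold change of -1.12 ± 0.29 (adjusted p = 0.0109). Both calls were lost with normal replicate 2 left out (adjusted p = 0.157 for Adam17 and 0.125 for Adam10), and that of Adam17 also with normal replicate 1 left out (adjusted p = 0.241). Of 13 genes for enzymes known to cut chemokines or their neighbours on the cell surface, 8 were tested, 4 rose and 1 fell, beside 15.5% and 13.9% of all genes tested.

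The others that rose were the protease genes Mmp9, Mmp13 and Ctsk. Mmp9 (gelatinase B) had 51.4 and 50.3 CPM in the resistant libraries, against 0.496 and 1.01 CPM in the normal libraries (log2 fold change 5.95 ± 0.56; 6.54 without normal replicate 2). Mmp13 (collagenase 3) had 49 and 26 reads in the resistant and none in the normal libraries, 46.6-fold higher against 3 reads over the group, with an exact 95% lower limit of 37.0-fold. Neither Mmp9 nor Mmp13 met the count filter in a normal library, so that they could hardly enter the test without differing. Ctsk (cathepsin K) had a log2 fold change of 3.75 ± 0.43.

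Genes known to act upstream of these ligands were read from a list of 31, of which 30 were tested. In all 14 rose and 1 fell, beside 15.5% and 13.9% of all genes tested, and the median log2 fold change was 0.67, against -0.00 over all genes tested. Without normal replicate 1 the count that rose was 8, beside 9.85% of all genes tested, and without normal replicate 2 it was 6, beside 8.81%. Of 6 interferon factors, which serve genes such as Cxcl10 and Ccl5, 5 rose, beside 15.5% of all genes tested. Irf7 rose by 5.07 ± 0.51, Stat2 by 3.12 ± 0.36, Irf9 by 2.50 ± 0.34 and Irf1 by 1.53 ± 0.31. Irf7 met the count filter in 1 normal library, so that it could hardly enter the test without differing. Irf3 did not pass, with 26.6 and 45.5 CPM in the resistant libraries, against 56.7 and 64.0 CPM in the normal libraries (log2 fold change -0.74). Irf1 missed the threshold without normal replicate 1 (adjusted p = 0.113) and without normal replicate 2 (adjusted p = 0.0639). Irf1 was named after its values were seen.

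Of 11 NF-kB genes 3 rose and 1 fell, beside 15.5% and 13.9% of all genes tested, and none of the subunit genes Rela, Relb, Rel, Nfkb1 and Nfkb2 passed the test. The 3 that rose encode inhibitors or modulators that NF-kB itself induces, and were named after their values were seen. Nfkbiz rose by 2.27 ± 0.42, and by 1.66 without resistant replicate 1. Nfkbia rose by 1.17 ± 0.32 and Tnfaip3 by 1.43 ± 0.41. With normal replicate 1 left out, Nfkbia (adjusted p = 0.321) and Tnfaip3 (adjusted p = 0.178) missed the threshold, as they did with normal replicate 2 left out (adjusted p = 0.233 for Nfkbia and 0.257 for Tnfaip3).

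Chuk, the gene of the kinase IKK-alpha, had 29.7 and 17.6 CPM in the resistant libraries, against 75.1 and 81.8 CPM in the normal libraries. Its log2 fold change was -1.73 ± 0.40 (adjusted p = 0.00563), not past the test without normal replicate 2 (adjusted p = 0.0686). Of the receptors for inflammatory stimuli 6 of 10 rose, beside 15.5% of all genes tested. Among these 6, Tnfrsf1a (adjusted p = 0.0451) and Ifngr2 (adjusted p = 0.0491) passed the quasi-likelihood test only narrowly. Tlr2, also among the 6, met the count filter in 1 normal library, so that it could hardly enter the test without differing. The receptors were led by Il1r1, the interleukin-1 receptor, with 243 and 214 CPM in the resistant libraries, against 8.67 and 7.41 CPM in the normal libraries (log2 fold change 4.83 ± 0.35, adjusted p = 3.67e-06).

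Leukocytes also make several of these ligands, and their markers were few. The summed level of 19 leukocyte markers was 31.2 and 47.0 CPM in the resistant libraries, against 10.9 and 11.1 CPM in the normal libraries, and 11 of the 19 had no read in each group. The pan-leukocyte gene Ptprc and the genes Tyrobp, Fcgr3 and Cd3e had 0 reads in all 4 libraries. S100a8, found in neutrophils, had 24 and 44 reads in the resistant libraries, against 1 and 0 reads in the normal libraries. Lyz2, of macrophages and neutrophils, had 20 and 21 reads in the resistant libraries, against 2 and 7 reads in the normal libraries. Cd14 had 8 and 29 reads in the resistant libraries, against 5 and 14 reads in the normal libraries. Other markers of the list did not rise. S100a9 had 0 reads in all 4 libraries. Csf3r had 4 and 4 reads in the resistant libraries, against 5 and 8 in the normal libraries. Cd68 had 13 and 10 reads in the resistant libraries, against 16 and 21 in the normal libraries. The sum of 9 endothelial and pericyte markers was 27.4 and 17.6 CPM in the resistant libraries, against 287 and 197 CPM in the normal libraries. Cspg4 alone made up 97.8% to 98.2% of the normal sums and 72.2% to 72.9% of the resistant sums. Rgs5, the second gene of that list, went the other way, with 12 and 9 reads in the resistant libraries, against 1 and 3 reads in the normal libraries. The summed level of 8 epithelial markers was 45.7 and 63.9 CPM in the resistant libraries, against 9.66 and 9.26 CPM in the normal libraries, all of it Krt19 in the resistant libraries. Beyond the reads given, the part of such cells in the chemokine results was not tested.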

How the data were processed

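The deposited table of whole-number read counts per gene symbol was used; the normalized table was not. The submitters' processing notes list the mm9 build and the tools HTSeq 0.7.2, TopHat2 2.1.1, Picard 1.62, bcl2fastq 2 and DESeq2. Their roles and settings, and the annotation, were not given in the sources used. The authors' deposited table also holds mean normalized signal, log2 fold changes, a score (the test statistic), p-values and adjusted p-values; the score is 0 for 9194 genes, none with an absolute log2 fold change above 1.01.

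Counts were fitted for all 4 libraries with edgeR 4.0.16 (R 4.3.3): filterByExpr with a minimum count of 10, TMM scaling, a quasi-likelihood F test of the group and Benjamini-Hochberg adjustment over all genes. SE is the log2 fold change over the root of F. Depth was 2785936 to 5558541 reads; 95% intervals on ratios (exact binomial) and floors (3 reads) account for counting error alone, because reads without molecular identifiers are not independent molecules. Lengths and overlaps came from GENCODE M21 (GRCm38) by symbol and promoters from RefSeq (GRCm38.p6), with 5 of 10 members matched.

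The members and lists were chosen with earlier results of these data known, and the motifs after the promoters were seen. Named genes were the members, up to 4 called genes of smallest adjusted p per list and direction, the members' receptors, the sheddases, in a list with no call the 2 of highest CPM, and the summed level and top 2 genes of cell type lists; others were named with values known, and some genes of the lists are not reported here. Alternatives were other size factors, library totals, offsets that remove each library's trend along abundance, other count filters, limma-voom (3.58.1), DESeq2 1.42.0, other edgeR tests, a replicate block and leaving out each library. The procedure was tested on simulated counts.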

Additional observations from a re-analysis of the deposited data

How the results depend on the processing

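Of 432 single-gene values under alternatives, 393 kept their direction and their side of the threshold, 26 no longer passed, 11 newly passed and 2 turned in sign, both Cxcl14: 0.24 without resistant replicate 2 and 0.04 without normal replicate 2, in a range of -1.10 to 0.24 with 1 library left out. The members called higher numbered 7 to 10 in all alternatives; the 10 came without the low-count filter, where 12.5% of all genes were called higher, and included Cxcl2. At least 50 reads in 2 libraries left Ccl5 and Cxcl16 untested. Over all genes 1857 were called higher and 1668 lower, against 1066 and 839 with glmTreat. With 1 library left out they were 1057 to 2104 and 925 to 2357, the lone library being assumed to vary like the other group; receptors called lower were 0 to 1, processing enzymes called lower 0 to 1, and regulators called higher 6 to 15 and lower 0 to 3. Library totals as the only scaling moved the median of all genes by -0.14 and the balance to 1736 higher and 2150 lower; it called 1 other ligand (Ccl25), 1 receptor (Ackr3) and 2 regulators lower. Without the low-count filter 5 other ligands were called higher, and 1 ligand, 1 receptor and 3 regulators lower, beside 12.5% of all genes higher and 12.4% lower. DESeq2 and limma-voom each called 1 receptor lower, and the likelihood ratio test 1 ligand and 1 receptor. With glmTreat 8 regulators were higher, and 0 regulators and 0 processing enzymes lower. Abundance offsets called 2 regulators lower. With the replicate number as a block, 1 ligand, 1 receptor and 2 regulators were lower, and 2257 genes were higher and 2267 lower. Equal numbers share only a number: the replicate differences correlated at 0.228 between the groups over genes. The causes were not tested. Depth limits Cxcl2, Cxcl16 and the receptors most, with 3 reads worth 0.540 to 1.08 CPM.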
